A study of Mus musculus with 12 samples.

Results

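The microvilli of the duodenal epithelium are described here through 10 structural genes, Vil1, Espn, Pls1, Eps8, Myo1a, Ezr, Cdhr2, Cdhr5, Ush1c and Myo7b, chosen by name. All 10 were present among the 6429 genes of both comparison tables that the authors deposited. What was measured at them is the occupancy of RNA polymerase II (Pol II), read by ChIP-seq, the sequencing of DNA that is pulled down with an antibody to the protein bound to it. The comparisons ask how Pol II occupancy differs between crypt and villus cells. They also ask how it differs between wild-type villus and villus labelled as a double knockout of the HNF4 transcription factors.

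Of the 12 samples in the labels, 9 are Pol II libraries, 3 in each of 3 groups, and 3 are inputs, which have no column in the tables used. WT villus and WT crypt came from wild-type mice that were given 10% ethanol and 90% corn oil as vehicle, without tamoxifen. Mutant villus came from mice of the genotype Hnf4{alpha}{gamma} DKO, which received 50 mg/kg of tamoxifen a day for 2 days and were killed 1 day after the last injection. In all 3 groups the epithelium was adult and was released with 3 mM EDTA, for 35 minutes in WT and 25 minutes in mutant tissue, and villi were kept back by a 70 µm filter that lets crypts through. Genotype, tamoxifen and EDTA time thus changed together between WT and DKO and cannot be told apart. The labels give neither the age of the mice nor the driver of the knockout. The promoter of Vil1 itself is widely used to express Cre recombinase in the intestine, and whether these mice carry such a transgene is not stated. Nothing in the labels says whether the libraries of a group came from separate mice, so the p-values measure the spread between these libraries only.

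A microvillus is a finger of membrane around a bundle of parallel actin filaments, and the dense array of them on the enterocyte is the brush border, which enlarges the absorbing surface. The bundle is held together by villin, espin and plastin, tied to the membrane by myosin 1a and ezrin, and capped or bundled at its tip by EPS8. Protocadherins at the tips link neighbouring microvilli to each other through a complex that also holds the scaffold harmonin and myosin 7b. Microvilli are short and sparse on crypt cells and lengthen and pack as cells mature onto the villus.

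The promoters of 4 of these genes are shown because their genes stand at different ends of the results below: Vil1, Ezr and Cdhr2, which differed most among themselves in labelled-DKO villus, and Cdhr5, the partner of Cdhr2. Each is 300 bases from RefSeq on GRCm38.p6, of which 250 lie before the annotated start and 50 from it on, written 5′ to 3′ on the gene's strand. Capitals mark matches to any of the motifs listed after the sequences.
Vil1 (chr1:74409134-74409433, plus strand): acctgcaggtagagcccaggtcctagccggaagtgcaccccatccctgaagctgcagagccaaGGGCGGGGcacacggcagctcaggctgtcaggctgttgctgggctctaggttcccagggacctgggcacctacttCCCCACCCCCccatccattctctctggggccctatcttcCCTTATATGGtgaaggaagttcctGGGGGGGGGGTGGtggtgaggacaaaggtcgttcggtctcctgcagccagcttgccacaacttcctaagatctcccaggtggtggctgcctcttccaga
Ezr (chr17:6782731-6783030, minus strand): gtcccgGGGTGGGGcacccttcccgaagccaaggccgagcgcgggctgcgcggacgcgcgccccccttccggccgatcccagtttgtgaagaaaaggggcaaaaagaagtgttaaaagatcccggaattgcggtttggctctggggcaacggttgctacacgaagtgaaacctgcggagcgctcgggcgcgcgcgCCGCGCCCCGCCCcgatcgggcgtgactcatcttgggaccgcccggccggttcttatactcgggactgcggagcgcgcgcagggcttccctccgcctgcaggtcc
Cdhr2 (chr13:54701213-54701512, plus strand): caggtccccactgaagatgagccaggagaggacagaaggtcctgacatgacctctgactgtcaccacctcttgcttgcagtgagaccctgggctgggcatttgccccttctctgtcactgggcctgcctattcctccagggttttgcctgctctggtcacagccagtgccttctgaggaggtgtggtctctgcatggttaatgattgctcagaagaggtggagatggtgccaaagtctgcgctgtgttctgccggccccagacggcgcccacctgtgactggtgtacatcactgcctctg
Cdhr5 (chr7:141276737-141277036, minus strand): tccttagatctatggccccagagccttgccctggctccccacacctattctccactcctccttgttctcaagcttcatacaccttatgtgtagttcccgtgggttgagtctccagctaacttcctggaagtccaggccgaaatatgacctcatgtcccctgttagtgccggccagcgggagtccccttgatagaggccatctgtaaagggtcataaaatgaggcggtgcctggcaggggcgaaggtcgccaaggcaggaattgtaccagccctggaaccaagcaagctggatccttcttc

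Promoters were matched for 8 of the 10 genes, 10 promoters in all since Espn has 3, and Eps8 and Myo7b had no match. The HNF4-type motifs CAAAGTCCA, CAAAGGTCA and CAAAGTTCA, the GATA-type AGATAA and TATAAA were found on neither strand of any of the 10. Among all 32851 promoters of the table these 5 motifs were held by 0.475%, 0.478%, 0.390%, 11.2% and 13.6%. The CDX-type TTTATNG occurred in 1 promoter of Espn and in 10.9% of all promoters. The GC-rich KLF-type CCNCNCCC occurred in 8 of the 10 promoters, of 6 genes, and in 49.5% of all. The 3 promoters of Espn are among the 8. The median GC content was 60.7% in the 10 promoters and 52.7% over all, and the share of GC content in these matches was not tested. Vil1 alone held a CArG box, the site of serum response factor, beginning 73 bases before the start. CArG boxes were present in 1.63% of all promoters, and this motif was added to the search after the Vil1 sequence had been read. KLF-type matches can overlap each other, as they do in Vil1 and Ezr. The dinucleotide CG was counted 38 times in the Ezr promoter, against 5 in Vil1, 4 in Cdhr2 and 7 in Cdhr5, and against a median of 7 over all promoters, of which the 75th percentile was 20. The other 6 promoters of these genes had between 2 and 16. These matches describe letters in a short window and say nothing about which factor is bound there.

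Signals are given as size-factor-normalised Pol II counts. The tables hold no value per library, so the mean of each group was rebuilt from the authors' mean over all libraries and their log2 fold changes, assuming groups of equal size. Fold changes are on the log2 scale with the standard error (SE) after ±, a positive value means more signal in the group named first, and an adjusted p-value below 0.05 made a call. Levels are not read as differences in Pol II between genes, because the window behind the deposited signal is not stated and its length is therefore unknown. Where genes are ranked by mean signal below, it serves as the size of the count behind the error. In bulk libraries fewer cells of a type and less Pol II per cell cannot be told apart.

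The genes targeted by the knockout were read first. In the authors' deposited table of WT against DKO villus, Hnf4a had a log2 fold change of -0.54 ± 0.14 (DESeq2 adjusted p 4.84e-04) and Hnf4g of -1.45 ± 0.22 (adjusted p 7.81e-10). Both had more signal in the villi labelled DKO, and the deleted parts of the genes are not given in the labels, so these values neither check nor contradict the genotype at the protein level. The mutant group is therefore called labelled-DKO villus, and directions between genotypes follow the table's name. Enterocyte genes chosen as markers were called higher in WT villus than in WT crypt for 14 of 14 tested, beside 18.6% of all 6429 genes. Crypt-side markers were covered thinly, with 2 of 10 stem cell genes and 3 of 10 proliferation genes among those tested, and all 5 were called higher in crypt, beside 18.8% of all genes.

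**Figure D1:**
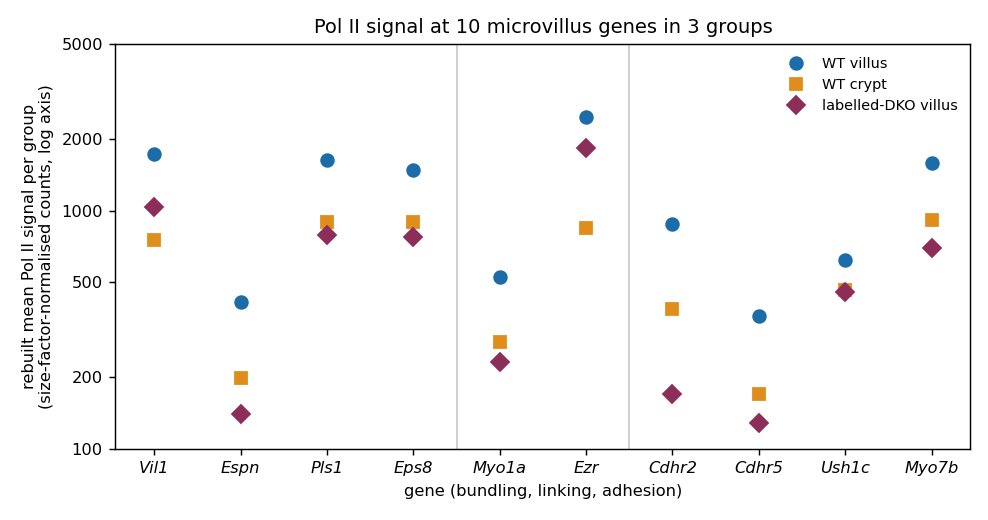
Rebuilt mean Pol II signal (size-factor-normalised counts, log axis) at the 10 genes in WT villus (circles), WT crypt (squares) and labelled-DKO villus (diamonds); the vertical lines separate bundling, linking and adhesion genes, and no error is drawn because the tables give none per group. WT villus was the highest of the 3 groups at all 10 genes, and labelled-DKO villus lay above crypt at Vil1 and Ezr only, by these means.

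Pol II signal was higher in WT villus than in WT crypt at all 10 genes. In the authors' deposited table all 10 were called, the background being 18.6% of all 6429 genes called higher in villus. The median log2 fold change of the 10 was 0.98, with a range of 0.42 to 1.54, beside -0.04 over all genes. After log2 fold changes were centred on the median of all genes the count stayed at 10, and in a test against changes up to 0.5 it was 7, without Myo1a, Myo7b and Ush1c.

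Among the bundling genes, Vil1, which encodes villin, an actin bundling and severing protein, had a rebuilt mean signal of 1729.7 in WT villus and 754 in WT crypt. Its log2 fold change in the authors' deposited table was 1.20 ± 0.16 (DESeq2 adjusted p 9.50e-12), a 2.29-fold higher signal in villus. Espn, for the bundler espin, had 411 in WT villus and 199 in WT crypt, with 1.05 ± 0.15 in the authors' deposited table (DESeq2 adjusted p 1.84e-11). Villin and espin genes therefore both had a little over a doubling. Pls1, for plastin 1, had 1636 and 898, and a log2 fold change of 0.86 ± 0.07 in the authors' deposited table (DESeq2 adjusted p 3.22e-29). Eps8, for a protein that caps and bundles actin at the microvillus tip, had 1477 and 899, and 0.72 ± 0.07 in the authors' deposited table (DESeq2 adjusted p 6.14e-24). Pls1 and Eps8 had smaller folds than Vil1 and smaller errors, so their adjusted p-values were the lowest of the 10.

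The membrane linkers differed more between themselves. Ezr, for ezrin, which joins the plasma membrane to actin and is made in many epithelia, had the largest fold of the 10. Its rebuilt mean was 2471 in WT villus and 848 in WT crypt, and its log2 fold change in the authors' deposited table was 1.54 ± 0.26 (DESeq2 adjusted p 2.65e-08), or 2.91-fold. Myo1a, for the short myosin that bridges the bundle to the membrane, had 525 and 281, with 0.90 ± 0.19 (DESeq2 adjusted p 1.87e-05) in the authors' deposited table. The 95% intervals of the pair overlapped, at 1.04 to 2.04 for Ezr and 0.53 to 1.27 for Myo1a.

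Of the adhesion genes, the protocadherin Cdhr2 had a rebuilt mean of 881 in WT villus and 387 in WT crypt, and 1.19 ± 0.17 in the authors' deposited table (DESeq2 adjusted p 4.64e-11). Its partner Cdhr5, a second protocadherin of the tip link, had 361 and 169, and 1.09 ± 0.12 in the authors' deposited table (DESeq2 adjusted p 4.93e-17). The protocadherin genes thus differed from each other by less than their errors. Myo7b, for the motor of the complex, had 1588.5 and 913, with 0.80 ± 0.12 (DESeq2 adjusted p 2.10e-09) in the authors' deposited table. Ush1c, for the scaffold harmonin, had the smallest fold of the 10, with 619 against 462 and 0.42 ± 0.09 (DESeq2 adjusted p 2.76e-05) in the authors' deposited table. The interval of Ush1c, 0.24 to 0.60, overlapped those of Myo7b, Eps8 and Myo1a, and lay below those of the other 6 genes.

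**Figure D2:**
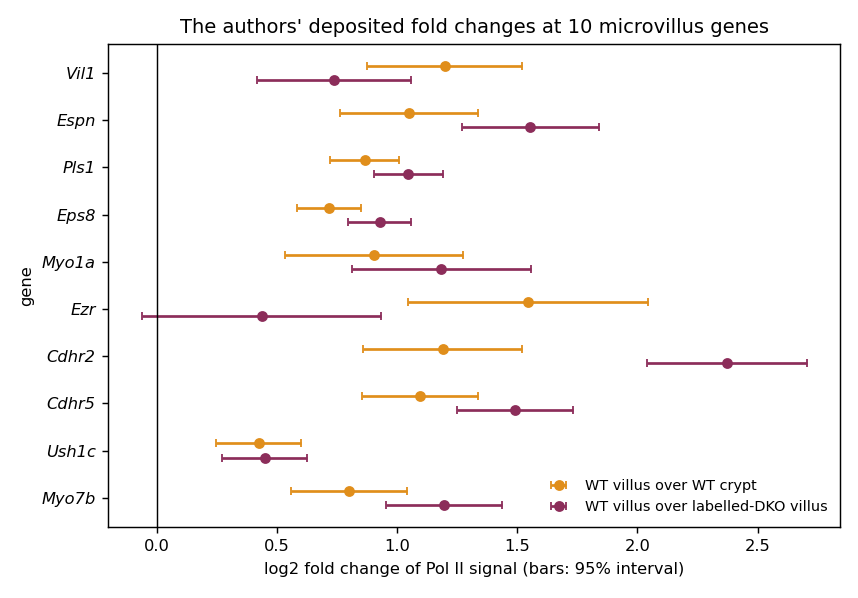
Log2 fold changes of Pol II signal at the 10 genes from the authors' deposited tables, WT villus over WT crypt (orange) and WT villus over labelled-DKO villus (purple), with 95% intervals of 1.96 SE. All intervals lie above 0 except that of Ezr between the genotypes, which runs from -0.06 to 0.93, and Cdhr2 has the largest value, 2.37.

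Between the genotypes the signal was lower in labelled-DKO villus at 9 of the 10 genes, and Ezr did not pass the test. The authors' deposited table called 9 of 10 higher in WT villus, the background being 22.4% of all genes called in that direction, and 0 in the other direction, where the background was 29.5%. The median of the 10 was 1.12, with a range of 0.43 to 2.37, beside -0.08 over all genes. In a test against changes up to 0.5 the count was 7, without Vil1 and Ush1c. The WT villus libraries enter both comparisons, whose values are therefore set side by side and not tested against each other.

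The adhesion genes spanned the widest range. Cdhr2 fell the most of the 10, from 881 in WT villus to 170.0 in labelled-DKO villus, which is 2.37 ± 0.17 on the log2 scale in the authors' deposited table (DESeq2 adjusted p 1.20e-42), or 5.18-fold. Its interval of 2.04 to 2.71 lay above those of the other 9 genes. Cdhr5 went from 361 to 128, with 1.49 ± 0.12 in the authors' deposited table (DESeq2 adjusted p 6.44e-32), or 2.81-fold. Myo7b went from 1588.5 to 693, with 1.20 ± 0.12 in the authors' deposited table (DESeq2 adjusted p 7.91e-21). The smallest change of the adhesion genes was at Ush1c, from 619 to 454, with 0.45 ± 0.09 (DESeq2 adjusted p 3.69e-06) in the authors' deposited table. So within a complex whose proteins work together, the signal was 5.18-fold higher in WT villus at the largest and 1.36-fold at the smallest.

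Bundling genes all fell. Espn went from 411 in WT villus to 140.0 in labelled-DKO villus, with 1.55 ± 0.15 in the authors' deposited table (DESeq2 adjusted p 6.63e-25). Pls1 went from 1636 to 792, with 1.05 ± 0.07 (DESeq2 adjusted p 5.30e-44) in the authors' deposited table, and Eps8 from 1477 to 777. The value of Eps8 in the authors' deposited table was 0.93 ± 0.07 (DESeq2 adjusted p 4.35e-41). Vil1 had the smallest difference of the bundlers, from 1729.7 to 1038, with 0.74 ± 0.16 in the authors' deposited table (DESeq2 adjusted p 3.14e-05). Espn and Vil1 did not overlap in their intervals, which ran from 1.27 to 1.84 and from 0.42 to 1.06.

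Of the linkers, Myo1a fell from 525 to 231, with 1.18 ± 0.19 in the authors' deposited table (DESeq2 adjusted p 3.93e-09). Ezr had 2471 in WT villus and 1828 in labelled-DKO villus, a log2 fold change of 0.43 ± 0.25 in the authors' deposited table (DESeq2 adjusted p 0.141). The interval of Ezr, -0.06 to 0.93, includes both no difference and a difference as large as that of Eps8, so a change of that size is not told from none at this error.

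**Figure D3:**
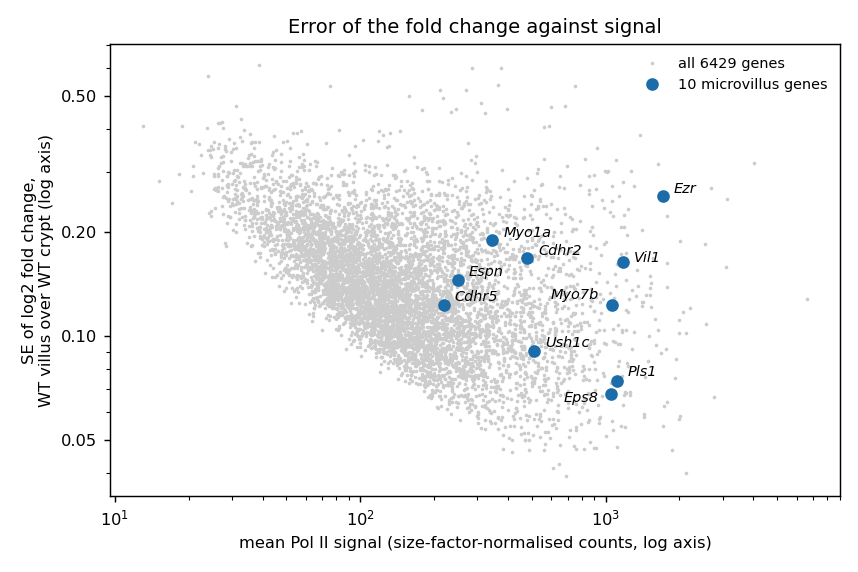
SE of the log2 fold change of WT villus over WT crypt against mean Pol II signal (size-factor-normalised counts), both on log axes, for all 6429 genes (grey) and the 10 microvillus genes (blue, named). Ezr combines the highest mean signal of the 10, 1716, with the largest SE, 0.26, and Eps8 has the smallest SE, 0.07.

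The precision behind these values differed between the genes and not only with signal. Ezr had the highest mean signal of the 10, 1716 in the authors' deposited table, and the largest SE, 0.26, which was 2.18 times the median SE of the 79 genes within 1.5 times its signal. Myo1a, Cdhr2 and Vil1 had SEs 1.72, 1.57 and 1.49 times the median of genes of like signal. Eps8 and Pls1 were more precise than genes of like signal, at 0.63 and 0.68 times the median. Differences at Eps8, Pls1 and Ush1c were thus measured with an error under 0.10, and those at Ezr, Myo1a, Cdhr2 and Vil1 with one over 0.16.

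Labelled-DKO villus was then set against WT crypt, to see where the mutant villus stood relative to the immature end of the axis. The comparison is the difference of the authors' deposited log2 fold changes, in which the WT villus libraries cancel. Its SE was first taken as the largest it can be, the root of the summed squares, and then rebuilt from 1 dispersion per gene. With the largest SE, Ezr was called higher in labelled-DKO villus and Cdhr2 higher in crypt. That is 1 of 10 in each direction, a count near the background of 6.41% and 7.19% of all genes. The rebuilt SE gave 2 calls toward labelled-DKO villus, near the 15.2% of all genes, and 5 toward crypt, beside 13.6%. By sign alone 8 of the 10 were below crypt, as were 49.7% of all genes.

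Ezr had a higher signal than in crypt, with 1828 in labelled-DKO villus and 848 in WT crypt. That is a log2 fold change of 1.11 ± 0.36, computed from the authors' deposited table, with a Wald adjusted p over all genes of 0.0205, or 1.47e-04 with the rebuilt SE. With the largest SE the call was lost when an adjusted p under 0.01 was required, and a test against changes up to 0.5 gave an adjusted p of 1.0. Vil1 had 1038 and 754, at 0.46 ± 0.23 with a Wald adjusted p of 0.194, and it passed with the rebuilt SE of 0.16, at an adjusted p of 0.0221. Cdhr2 was on the other side, with 170.0 in labelled-DKO villus and 387 in WT crypt, at -1.19 ± 0.24 and a Wald adjusted p of 2.31e-05, and it too was not called in the test against changes up to 0.5. Ezr and Cdhr2, both more than doubled from crypt to villus in WT mice, thus stood on opposite sides of crypt in labelled-DKO villus.

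The other members lay between. Espn was at -0.51 ± 0.21, Cdhr5 at -0.40 ± 0.17, Myo7b at -0.40 ± 0.17 and Eps8 at -0.21 ± 0.10. These 4 did not pass with the largest SE, at Wald adjusted p-values of 0.0837, 0.116, 0.118 and 0.134. All 4 passed with the rebuilt SE, at 0.00578, 0.0140, 0.00784 and 0.0127. Neither SE gave a call for Myo1a at -0.28, for Pls1 at -0.18 or for Ush1c at -0.03, where the adjusted p-values were 0.599, 0.275 and 0.945 with the largest SE and 0.295, 0.0569 and 0.875 with the rebuilt SE. For Ush1c the interval with the largest SE ran from -0.28 to 0.22, so its signal in labelled-DKO villus was within about that distance of its signal in crypt.

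**Figure D4:**
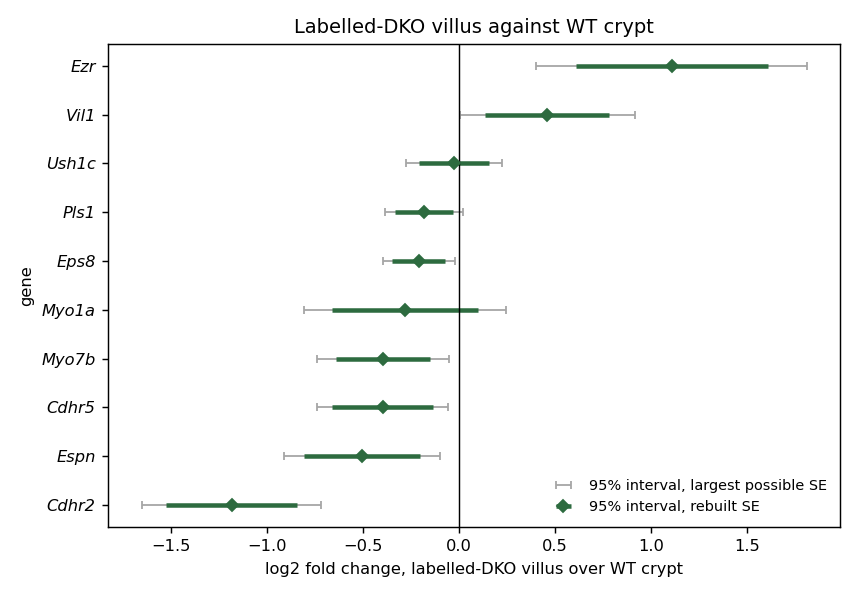
Log2 fold change of labelled-DKO villus over WT crypt at the 10 genes (diamonds), with 95% intervals from the largest possible SE (thin grey) and from the rebuilt SE (thick green). Ezr at 1.11 and Cdhr2 at -1.19 are the extremes, and both of their intervals exclude 0.

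Other genes of the brush border were taken from a list of 43, of which 30 were among the genes tested. Of the 30, the authors' deposited table called 15 higher in villus than in crypt, beside 18.6% of all genes, and 2 higher in crypt, beside 18.8%. Their median was 0.27, well under the 0.98 of the 10 structural genes. Slc9a3r1, for the scaffold that binds ezrin, had the largest value, 1.65 ± 0.15 in the authors' deposited table (DESeq2 adjusted p 1.80e-25). Pdzk1, a related PDZ scaffold of brush border transporters, followed with 1.12 ± 0.09, and the EPS8 relatives Eps8l3 and Eps8l2 had 0.98 ± 0.19 and 0.98 ± 0.10 in the authors' deposited table. The genes higher in crypt were the myosins Myo1d and Myo6, at -0.42 ± 0.11 and -0.29 ± 0.08 in the authors' deposited table.

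Between the genotypes 15 of the 30 were called toward WT villus in the authors' deposited table, beside 22.4% of all genes, and 9 toward labelled-DKO villus, beside 29.5%. After centring on the median of all genes the counts were 16 and 6, beside 26.6% and 22.1%. The share called toward labelled-DKO villus was thus near that of all genes, before and after centring. Eps8l3 had 2.45 ± 0.19 and Slc9a3r1 2.36 ± 0.15 in the authors' deposited table, values close to that of Cdhr2, and Pdzk1 and the myosin Myh14 had 1.88 ± 0.09 and 1.42 ± 0.14. Slc9a3r1, whose product binds ezrin, fell, with an interval of 2.06 to 2.66 that did not overlap the -0.06 to 0.93 of Ezr. In the other direction Myo1d, a class I myosin like Myo1a, had -1.39 ± 0.11 in the authors' deposited table (DESeq2 adjusted p 1.04e-35), a higher signal in labelled-DKO villus, while Myo1a was lower there. Baiap2l1, Rab11a and the nonmuscle myosin Myh9 likewise had more signal in labelled-DKO villus, at -0.78 ± 0.23, -0.75 ± 0.16 and -0.54 ± 0.13 in the authors' deposited table. Baiap2l1 encodes a membrane-bending protein and Rab11a a regulator of recycling endosomes.

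The adhesion complex has further partners on that list, Anks4b and Calml4, which were singled out after their values had been seen. With them, 6 of 6 genes of the complex were called higher in WT villus in each of the authors' deposited tables, beside 18.6% of all genes against crypt and 22.4% against labelled-DKO villus. Anks4b had 0.75 ± 0.17 against crypt and 1.09 ± 0.17 against labelled-DKO villus in the authors' deposited tables. Calml4, a light chain of myosin 7b, had 0.37 ± 0.09 and 1.35 ± 0.09. In labelled-DKO villus against crypt, computed from the authors' deposited tables, all 6 had a negative value, as did 49.7% of all genes, and Cdhr2 and Calml4 were called, the latter at -0.98 ± 0.13 with a Wald adjusted p of 7.83e-12. Eps8l3, Baiap2l2 and Pdzk1 were likewise below crypt there, at -1.47 ± 0.27, -1.29 ± 0.26 and -0.77 ± 0.12. Against crypt, 6 of the 30 genes were higher in labelled-DKO villus by the test and 6 were lower, beside 6.41% and 7.19% of all genes. Myo1d had the largest value of the first, 0.97 ± 0.15.

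**Figure D5:**
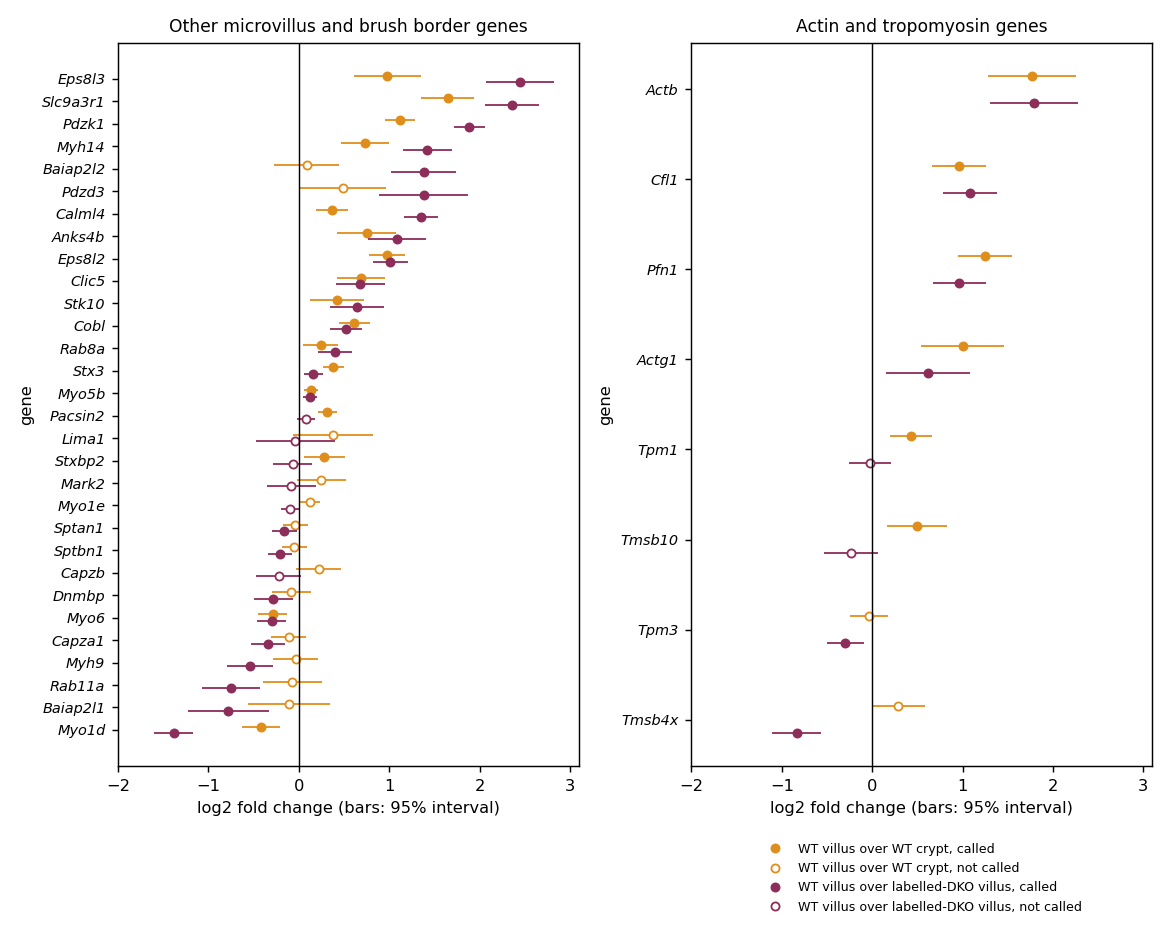
Log2 fold changes from the authors' deposited tables for 30 other brush border genes (left) and 8 actin and tropomyosin genes (right), WT villus over WT crypt (orange) and over labelled-DKO villus (purple), with 95% intervals; filled points were called and open points were not. Eps8l3 and Slc9a3r1 are at the top of the left panel with 2.45 and 2.36 between the genotypes, and Myo1d is at the bottom with -1.39.

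Actin itself and its small partners made up another list, with 8 of 10 genes tested. The authors' deposited table called 6 higher in villus than crypt, beside 18.6% of all genes, and 0 higher in crypt, beside 18.8%. Actb, for beta actin, had 1.77 ± 0.25, the profilin gene Pfn1 1.25 ± 0.15, Actg1 1.00 ± 0.24 and the cofilin gene Cfl1 0.96 ± 0.15. For the genotypes, the authors' deposited table had 4 calls toward WT villus, beside 22.4% of all genes, and 2 toward labelled-DKO villus, beside 29.5%. After centring there were 4 and 1, beside 26.6% and 22.1%, so the share called toward labelled-DKO villus was no higher than that of all genes. Actb had 1.79 ± 0.25 and Cfl1 1.08 ± 0.15, and Tmsb4x, for an actin monomer binding thymosin, had -0.84 ± 0.14 (DESeq2 adjusted p 1.97e-08). Against crypt with the largest SE, 3 of the 8 were called higher in labelled-DKO villus, beside 6.41% of all genes, and 0 lower, beside 7.19%. Those called were Tmsb4x at 1.13 ± 0.21, Tmsb10 at 0.73 ± 0.23 and Tpm1 at 0.45 ± 0.17. The Wald adjusted p of Tpm1 was 0.0480, close to the threshold. Actb was at -0.03 with a Wald adjusted p of 0.979.

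Markers of other cells that could be in the filtered fractions were read beside these values, and some of them differed between the groups. Rebuilt signals were summed over the genes tested of each list, so genes with large signals weigh most in a sum. For 14 enterocyte genes the sum was 23768 in WT villus, 8642 in WT crypt and 6781 in labelled-DKO villus. Between the genotypes all 14 passed toward WT villus, beside 22.4% of all genes. Their median log2 fold change there was 2.41, larger than the 1.12 of the 10 structural genes. For labelled-DKO villus over crypt their median was -0.79, beside -0.25 for the 10. With the largest SE, 1 of the 14 passed toward labelled-DKO villus, near the 6.41% of all genes, and 4 toward crypt, beside 7.19%. For 3 proliferation genes the sum was 175, 311 and 280.0. Between the genotypes all 3 passed toward labelled-DKO villus, beside 29.5% of all genes. The log2 fold changes of WT over labelled-DKO villus were -0.62 at Pcna, -0.74 at Ccnd1 and -0.67 at Myc. Between labelled-DKO villus and crypt none of the 3 passed with the largest SE, beside 6.41% and 7.19% of all genes in the 2 directions. With the rebuilt SE, Myc passed toward crypt, beside 13.6% of all genes, at -0.40 and a Wald adjusted p of 0.0393, while Pcna and Ccnd1 did not pass. For 2 stem cell genes the sum was 265, 384 and 319. Between the genotypes 0 of the 2 passed, with -0.38 ± 0.17 at Axin2 and 0.26 ± 0.19 at Sox9. Against crypt with the largest SE, Sox9 passed toward crypt, beside 7.19% of all genes, at -0.93 ± 0.26 and a Wald adjusted p of 0.00505. Axin2, at -0.11, did not pass. For 7 of 10 goblet and Paneth cell genes the sums were 3125, 2013 and 3474, carried mostly by the mucus genes Fcgbp and Muc2. The Paneth cell genes of that list, Lyz1, Mmp7 and Ang4, were not among those tested. Of the 7 tested, the authors' deposited tables called 4 higher in villus than crypt, beside 18.6% of all genes. They called 2, Spink4 and Agr2, higher in crypt, beside 18.8%, with log2 values of -0.72 and -0.66. Higher in labelled-DKO than WT villus were 3, beside 29.5% of all genes. For 3 of 8 immune genes the sum was 279, 212 and 179, and the difference lay in Cd74, at 188, 115 and 74.7, the only one of the 3 called in either deposited table. Coro1a, at 50.9, 55.0 and 61.9, and Gzmb, at 39.6, 42.7 and 42.2, were not called. For 2 of 6 enteroendocrine genes the sum was 125, 89.1 and 88.7, with Sct, at 61.3, 26.7 and 30.2, called in both deposited tables and Chga, at 63.6, 62.4 and 58.5, in neither. The 1 tuft cell gene tested, Avil, had 246, 253 and 259 and was called in neither. Mesenchyme genes, 0 of 8 tested, were not analysed here. The part of these cell types in the values of the 10 genes was not tested.

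In the authors' windows, on mm9, each of the 10 genes had at least 1 promoter window of 402 bases. Vil1 had its window at chr1:74455858-74456259, Myo1a at chr10:127142212-127142613 and Cdhr2 at chr13:54802724-54803125, all on the plus strand. On the minus strand lay Cdhr5 at chr7:148462384-148462785, Ush1c at chr7:53493559-53493960, Ezr at chr17:6986828-6987229, Pls1 at chr9:95745397-95745798 and Myo7b at chr18:32196284-32196685. Espn and Eps8 each had 3 different promoter windows, shared out over 6 and 5 transcripts. Those of Espn lay at chr4:151502733-151503134, chr4:151510133-151510534 and chr4:151526197-151526598, and those of Eps8 at chr6:137468115-137468516, chr6:137519229-137519630 and chr6:137597505-137597906. The deposited tables give 1 value per gene, so signal from alternative starts of Espn and Eps8 is not separated. Vil1 alone had a window that overlapped one of another gene, Usp37 on the opposite strand, over 51 bases of its gene body window.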

How the data were processed

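Pol II ChIP-seq libraries of WT villus, WT crypt and DKO villus were compared from 2 tables that the authors deposited in the DESeq2 results format, and the submitters' processing notes name DESeq2 1.36.0, Bowtie2 2.2.6 and the build mm9. For 6429 genes the authors deposited a mean signal (counts divided by size factors, averaged over libraries), a log2 fold change with its SE, a Wald score and raw and adjusted p-values, per the file headers. Benjamini-Hochberg adjustment over all genes gave the deposited adjusted p-values to within 3.76e-07. The gene filter and the window counted are not given in the sources used here. Depth per library is unknown from these tables, and the SE carries its effect.

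Both count tables were made with featureCounts 2.0.3 without a strand option, per the file headers, and have no column names. Their 18 columns of per-library counts were matched to no sample and not used, so the planned count and pausing tests were not run. Window positions were used, with transcripts named through RefSeq (GRCm38.p6) for 96.8% of promoter and 97.7% of gene body windows.

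Group means and the comparison of DKO villus with crypt were computed with numpy 2.4.6, pandas 2.3.3 and scipy 1.17.1. The same steps were run on simulated counts, with SEs made by the formula that the steps then invert. That run checks the arithmetic and cannot show whether the rebuilt SE suits the authors' fit. The Wald test of DKO villus against crypt was adjusted over all 6429 genes. Signs follow the tables' names. The difference in squared SE between the tables was explained to 68.7% by the inverse rebuilt means of crypt and DKO villus with the signs as named. With the first reversed it was explained to 40.4%. With the second or both reversed the slope was negative, at -0.12 and -0.46. A negative slope was not allowed in the fit, so the share was set to 0% there and is not a measured fit.

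The members and lists were chosen with earlier results of these data known. All members are named, together with Hnf4a and Hnf4g, up to 4 called genes per direction and comparison of the brush border and actin lists, and the 3 genes nearest to Vil1 over both fold changes, of which 1 is not reported here.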

Additional observations from a re-analysis of the deposited data

How the results depend on the processing

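The 10 genes called higher in WT villus than in crypt numbered 5 when a log2 fold change above 1 was also required, where 3.52% of all genes were called, and 7 in a test against changes up to 0.5, where 3.45% were. The 9 genes called toward WT between the genotypes numbered 6 and 7 in the same way, beside 6.53% and 7.53% of all genes, and Vil1 (adjusted p 0.924) and Ush1c (1.0) lost their calls in the test against 0.5. Ezr, the gene called higher in labelled-DKO villus than in crypt, gave a count of 0 with an adjusted p under 0.01 and 0 in a test against changes up to 0.5. Cdhr2, the gene called higher in crypt, gave 0 in the test against changes up to 0.5. With the rebuilt SE these counts were 2 and 5. Of 167 recomputed values of single genes, group means and motif counts, 146 kept their side of the threshold or moved within the spread. A further 16 became weaker and 5 stronger. Many of the 146 could not have changed. A gene not called by the main rule cannot be called by a stricter one. A motif count of 0 stays 0 in a shorter window. Group means were recomputed by centring only, which removed medians of -0.04 and -0.08 from the deposited fold changes. The 146 are therefore no measure of robustness. Among these settings only centring can change the sign of a fold change. It reversed no sign at the 10 genes, and the other settings could not have. No paired analysis was possible because the tables give no values per library. For the same reason leaving out each replicate, other size factors, other filters and DESeq2 against another tool were not run, and no result is checked against the loss of 1 library. Depth per library is unknown, and the SE is the only measure of precision.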

Other observations

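Of the 3205 other genes whose mean signal reached the median, the 2 closest to Vil1 in the authors' deposited fold changes were Bnip5 and Yif1b, at distances of 0.05 and 0.06 on the log2 scale over both comparisons. Yif1b, for a membrane protein of Golgi traffic, had 1.25 ± 0.27 for villus over crypt and 0.76 ± 0.27 for WT over labelled-DKO villus in the authors' deposited tables, beside 1.20 and 0.74 for Vil1. Bnip5 had 1.25 ± 0.15 and 0.74 ± 0.15 in the authors' deposited tables. This likeness is over 2 comparisons that share the WT villus libraries.

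The gene body windows in the authors' count table were laid out differently on the strands. For all 19858 plus-strand transcripts with both windows, the gene body window began after the promoter window, at a median of 350 bases downstream of the start. For all 21190 minus-strand transcripts it reached to a median of 350 bases upstream of the start, so that the promoter window lay wholly inside it (100% of minus-strand and 0% of plus-strand transcripts). Of the 10 genes, 7 are on the minus strand, with 20 transcripts, and this held for all 20. Vil1, Myo1a and Cdhr2 are on the plus strand. Counts in these windows were not used here, and the deposited tables do not state whether they rest on them.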
